A study of Mus musculus with 3 samples.

Results

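Interferon receptors and the signalling genes behind them were followed in 3 mouse blastocyst libraries, 1 from B6 and 2 from NOD. The group held 9 of the 24063 genes in the count table: the receptor chains Ifngr1, Ifngr2, Ifnar1 and Ifnar2, the related receptors Il10rb and Il22ra2 that lie beside them, the kinase Jak2, and the transcription factors Stat2 and Irf1. These genes were chosen by their role and with their levels in NOD and B6 already known, so that their differences between the strains are given as a description. The calls that a test across all genes made for them are listed once, beside the share of all genes called, and support nothing. NOD is an inbred strain that develops autoimmune diabetes spontaneously, and B6 (C57BL/6) is the strain without autoimmune disease it was compared with. Neither strain was treated, and no transgene or mutation is named for either. The ages of the embryos are not given in the sources used here. The labels describe whole blastocysts, whereas the paper's methods describe single inner cell masses (ICMs), and the values are given for blastocysts without assigning them to a tissue. The question was whether immune genes already differ between the strains at this stage.

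Interferons act through paired receptor chains. Type I interferons bind IFNAR1 together with IFNAR2, and interferon gamma binds IFNGR1 together with IFNGR2. The chains carry Janus kinases, of which JAK2 serves the interferon gamma receptor, and these phosphorylate STAT proteins. STAT pairs bind the GAS element of genes such as Irf1, while a complex that holds STAT2 and IRF9 binds the interferon-stimulated response element (ISRE). IL10RB is shared by the receptors for interleukin 10, interleukin 22 and the type III interferons, and IL22RA2 is a secreted receptor that captures interleukin 22. Early embryonic and pluripotent cells are known for a weak response to interferon.

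RefSeq promoters (GRCm38.p6, 250 bases before to 50 after a listed start) were found for 7 of the 9 genes, all on the plus strand, with 1 further start for Irf1. They were searched on both strands for the GAS letters TTCNNNGAA, which read the same on each strand, and for the ISRE letters GAAA, any 2 bases and GAAA again. GAS letters occurred in 8.30% of all 32851 promoters in the reference and ISRE letters in 3.44%. Among the 7 genes, GAS letters were present for Irf1, Ifnar2 and Ifnar1 and ISRE letters for Stat2, and no GAS match overlapped an ISRE match. The bases upstream of the start are shown for the gene with the largest NOD to B6 ratio among those counted in both strains (Ifngr1), for the one with the largest B6 to NOD ratio of CPM means (Ifnar2), and for the pathway's STAT targets Irf1 and Stat2, with matches in capitals.
Ifngr1, chr10:19591699-19591948: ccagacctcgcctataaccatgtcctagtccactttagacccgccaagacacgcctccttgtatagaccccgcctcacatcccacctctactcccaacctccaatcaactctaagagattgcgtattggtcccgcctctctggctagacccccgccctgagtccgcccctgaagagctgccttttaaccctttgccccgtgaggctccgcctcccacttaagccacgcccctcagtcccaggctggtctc
Ifnar2, chr16:91372533-91372782: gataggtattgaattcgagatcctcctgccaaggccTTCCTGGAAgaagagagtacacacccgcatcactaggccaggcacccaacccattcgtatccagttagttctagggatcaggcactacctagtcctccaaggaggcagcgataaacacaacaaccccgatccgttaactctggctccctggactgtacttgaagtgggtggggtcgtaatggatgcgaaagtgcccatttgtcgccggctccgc
Irf1, chr11:53769764-53770013: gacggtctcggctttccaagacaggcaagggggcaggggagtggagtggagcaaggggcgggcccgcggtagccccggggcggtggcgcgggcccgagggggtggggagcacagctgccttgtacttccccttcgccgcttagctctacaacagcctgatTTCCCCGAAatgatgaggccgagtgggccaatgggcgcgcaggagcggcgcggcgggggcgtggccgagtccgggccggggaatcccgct
Stat2, chr10:128270248-128270497: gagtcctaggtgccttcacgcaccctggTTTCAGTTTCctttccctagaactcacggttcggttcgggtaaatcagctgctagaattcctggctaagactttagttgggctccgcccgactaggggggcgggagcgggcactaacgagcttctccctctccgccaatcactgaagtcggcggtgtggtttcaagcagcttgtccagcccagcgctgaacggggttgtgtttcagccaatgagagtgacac
The GAS match of Irf1 began 90 bases before its start, that of Ifnar2 214 bases before, and the ISRE match of Stat2 222 bases before. The promoter of Ifngr1 held neither, which says only that these letters are absent from this window. A match is a description of the reference, which is of the B6 strain, and no binding was measured here.

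Counts on genes ranged from 12505685 in B6 to 36171013 in NOD 2. They were divided by library size and edgeR's TMM factors, giving CPM (counts scaled to a common library size), and a single count was worth 0.0734 CPM for B6 against 0.0303 and 0.0294 for NOD 1 and NOD 2. Levels of different genes were compared per length, as FPKM on the same scale. Marker genes of the blastocyst were present in each library: 6 trophectoderm genes were tested, and each was lower in both NOD libraries than in B6. Of all genes tested, B6 was above both NOD libraries for 39.4% and below both for 45.3%. The 7 trophectoderm markers summed to 2901 CPM in B6 against 1649 and 1527 in the NOD libraries, while the 7 epiblast and ICM markers summed to 371.3 CPM against 448.6 and 645. Nanog was the largest part of the latter sum (118.4 CPM in B6 and 276.9 ± 84.3 over the NOD libraries, SD, n = 2), and the list was mixed: Tdgf1 passed the test described below as higher in NOD and Sox2 as lower, and 4 genes were below both NOD libraries in B6 and 3 above both. The 6 primitive endoderm markers summed to 762.6 CPM against 769.1 and 982.6, with 3 genes below both NOD libraries in B6 and 1 above both. The largest in NOD was Dab2, with 371.2 CPM in B6 and 737.4 ± 122.8 over the NOD libraries (SD, n = 2), Pdgfra passed as higher in NOD, and Gata6 passed as lower (385.1 CPM and 110.7 ± 27.1). The 9 markers of maternal tract epithelium and cumulus summed to 66.2 CPM against 179.7 and 228.9, nearly all from Wfdc2, which passed as higher in NOD. The calls of Wfdc2 and Pdgfra were lost with upper-quartile scaling, and that of Pdgfra also with total-count scaling. Of 10 leukocyte markers, Ptprc and Csf1r had no counts in any library, and the list sum of 61.7 CPM for B6 against 22.2 and 24.2 for the NOD libraries was mostly Laptm5 (61.3 CPM in B6). The part of these shifts in the values below was not tested. Since a library holds the RNA of a whole embryo or ICM, fewer cells of a type and less RNA per cell cannot be told apart.

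The interferon gamma receptor had almost no transcripts of its ligand-binding chain in the B6 library, and transcripts of both chains in NOD. Ifngr1 (NM_010511, chromosome 10, 19591958 to 19610225) had 6 counts in the B6 library, against 1387 and 1040 in NOD 1 and NOD 2. On the CPM scale this was 0.440 for B6 and 36.3 ± 8.06 over the NOD libraries (SD, n = 2), so that B6 lay far below both NOD libraries. The NOD libraries differed from each other by 1.37-fold.

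Ifngr2 encodes the signalling chain of the same receptor (NM_008338, chromosome 16, 91547094 to 91564007). It had 90 counts in the B6 library, against 547 and 766 in NOD 1 and NOD 2, or 6.60 CPM against 19.5 ± 4.21 (SD, n = 2). B6 was again below both NOD libraries, but the ratio of NOD to B6 was 2.96 (exact Clopper-Pearson 95% interval 2.39 to 3.71, from the split of the counts) against 82.2 (37.7 to 224) for Ifngr1. Such intervals cover counting error only, because amplified reads without molecular identifiers are not independent molecules.

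The balance of the chains therefore turned over. Per length, Ifngr1 stood at 0.0657 times the level of Ifngr2 in B6 (counting interval 0.0235 to 0.149). It stood at 2.5 times the level of Ifngr2 in NOD 1 (2.26 to 2.77) and at 1.34 times in NOD 2 (1.22 to 1.47). In FPKM, Ifngr1 had the highest level of the 9 genes in each NOD library, while it was the lowest of the 8 genes counted in B6.

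**Figure D1:**
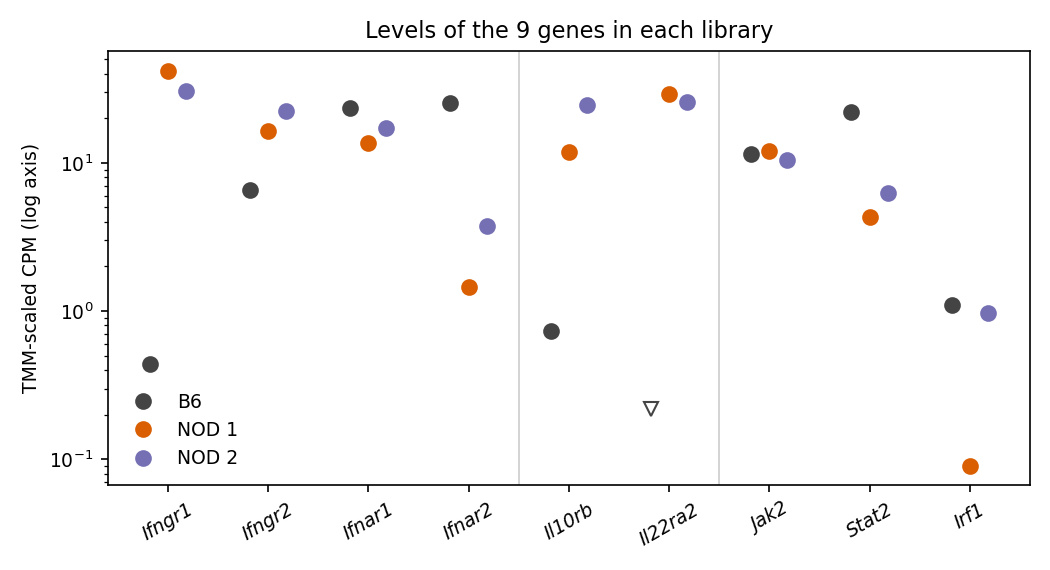
TMM-scaled CPM of the 9 genes in each library on a log axis, 1 point per library. The open triangle marks the limit of 0.220 CPM that 0 counts allow in B6. Ifngr1, Ifngr2, Il10rb and Il22ra2 lie higher in both NOD libraries than in B6, Ifnar1, Ifnar2, Stat2 and Irf1 lie lower in both, and Jak2 lies between.

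The type I receptor went the other way. Ifnar2 (NM_001110498, chromosome 16, 91372783 to 91394043) encodes the chain that binds type I interferons most tightly and had 345 counts in the B6 library, against 48 and 127 in NOD 1 and NOD 2. This was 25.3 CPM in the B6 library and 2.59 ± 1.61 over the NOD libraries (SD, n = 2), which gave a ratio of B6 to NOD of 9.71 (counting interval 8.07 to 11.7). The ratio was 17.4 against NOD 1 alone and 6.78 against NOD 2 alone. B6 was thus above both NOD libraries, whose own levels differed by 2.57-fold.

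Ifnar1, the partner chain (NM_010508, chromosome 16, 91485215 to 91510522), had 317 counts in the B6 library, against 452 and 590 in NOD 1 and NOD 2. Its level was 23.3 CPM in the B6 library and 15.5 ± 2.59 over the NOD libraries (SD, n = 2). B6 was above both NOD libraries, by 1.70-fold and 1.34-fold. The 2 NOD libraries differed by 1.27-fold, which is close to the smaller of these ratios.

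Per length, Ifnar2 stood at 6.57 times the level of Ifnar1 in B6 (counting interval 5.62 to 7.67), at 0.641 times in NOD 1 (0.466 to 0.864) and at 1.30 times in NOD 2 (1.06 to 1.58). B6 lay well above both NOD libraries. The 2 chains of the type I receptor summed to 25.1 FPKM in B6, 3.20 in NOD 1 and 5.70 in NOD 2. Those of the interferon gamma receptor summed to 3.41, 28.1 and 25.5 FPKM. The larger sum was thus that of the type I receptor in B6 and that of the interferon gamma receptor in both NOD libraries.

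**Figure D2:**
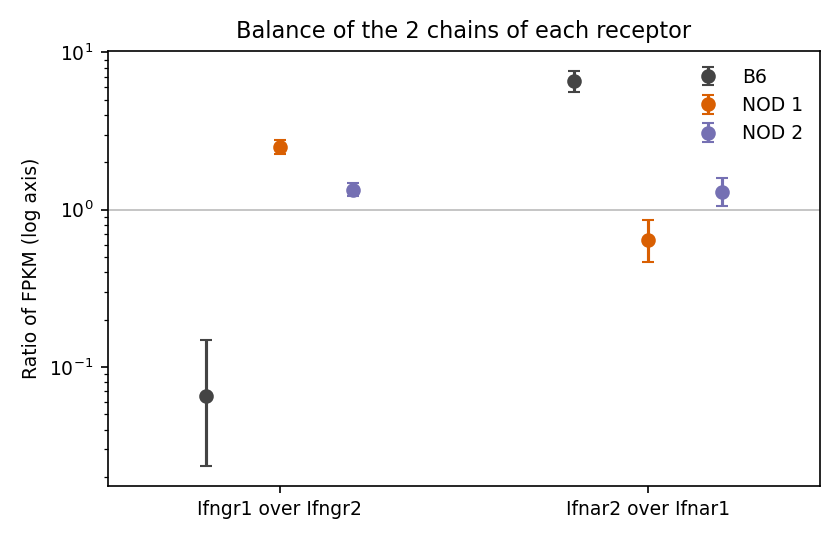
Per-length ratio of the paired chains of each receptor in each library on a log axis, with exact 95% counting intervals as bars and a grey line at equal levels. Ifngr1 over Ifngr2 is 0.0657 in B6 and above 1 in both NOD libraries, and Ifnar2 over Ifnar1 is 6.57 in B6 and 0.641 and 1.30 in NOD.

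The level of Ifnar2 depends on which exons were counted. Ifnar2 is known to give rise to a transmembrane chain and to a shorter, soluble form, and the transcript kept in the table has 1160 bases. The longest coding transcript of GENCODE M21 (GRCm38) has 3047 bases in 9 exons, of which 2 exons with 2008 bases (chromosome 16, 91399218 to 91399345 and 91403710 to 91405589) lie beyond the counted span. Reads on these exons are not in the values, so that the counts do not distinguish the forms. The listed length of Ifnar1 is 7000 bases against 3909 for the GENCODE transcript paired with the same RefSeq entry, and that of Ifngr2 is 2061 against 3708, which would change the per-length ratios above by a fixed factor in every library. With the GENCODE lengths, Ifnar2 would lie below Ifnar1 in NOD 2 as well as in NOD 1.

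Among the related receptors, both were higher in NOD. Il22ra2 (NM_178258, chromosome 10, 19622028 to 19634681) had 0 counts in the B6 library, against 970 and 879 in NOD 1 and NOD 2. Its NOD level of 27.6 ± 2.49 CPM (SD, n = 2) was 125 times the B6 limit of 3 counts. The exact 95% counting interval of the ratio, computed as for the other genes, began at 101.7. The NOD libraries differed from each other by 1.14-fold, the smallest gap among the 9 genes.

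Il10rb (NM_008349, chromosome 16, 91406235 to 91425834) had 10 counts in the B6 library, against 393 and 839 in NOD 1 and NOD 2. It stood at 0.734 CPM in the B6 library and 18.3 ± 9.03 over the NOD libraries (SD, n = 2), which gave a ratio of 25.0 (counting interval 13.6 to 52.3), or 16.2 from NOD 1 and 33.6 from NOD 2. B6 was below both NOD libraries, which were themselves 2.07-fold apart. The other chains that pair with IL10RB or bind related cytokines were at or near 0: Il22ra1 and Il20ra had no counts in any library, Il10ra had 2 counts in B6 only, and Ifnlr1 had 6 counts in NOD 2 only. Il20rb, a chain of receptors for interleukins 20 and 24, had 0.660 CPM in the B6 library and 2.30 ± 0.848 over the NOD libraries (SD, n = 2) and did not pass the test (edgeR adjusted p = 0.329).

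Ifnar2 and Il10rb are direct neighbours, with 12.2 kb between their spans, and differed from B6 in opposite directions in NOD. Per length, Il10rb stood at 0.0183 times the level of Ifnar2 in B6 (counting interval 0.00868 to 0.0340), at 5.16 times in NOD 1 (3.82 to 7.12) and at 4.16 times in NOD 2 (3.45 to 5.06). GENCODE lists Gm21970, a gene that joins exons of both, and 25.3% of the 50-base words of Ifnar2 and 29.0% of those of Il10rb occur in it. Gm21970 is not a row of the count table, so a read on a shared exon was counted for Ifnar2 or Il10rb. No read-through transcript could be counted separately.

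The 4 receptor genes on chromosome 16 span 191 kb. In order they are Ifnar2 (lower in NOD), Il10rb (higher), Ifnar1 (lower) and Ifngr2 (higher). Of the 6 nearest tested genes around them, 1 was up-regulated by the threshold described below, against 10.3% of all genes tested. None was down-regulated, against 7.39%. The up-regulated gene, Tmem50b, encodes a membrane protein. It went from 59.1 CPM in the B6 library to 251 ± 38.7 over the NOD libraries (log2 fold change 2.09, standard error 0.30, edgeR adjusted p = 0.0242). Gart, which encodes an enzyme of purine synthesis, had 275.6 CPM in the B6 library and 141 ± 12.0 over the NOD libraries (adjusted p = 0.0546). Synj1, Paxbp1 and Dnajc28 had log2 fold changes of 0.13, 0.24 and 0.74, each with an adjusted p above that of Gart. For Synj1 and Dnajc28, B6 lay between the NOD libraries. The sixth gene, 4930404I05Rik, had 0 counts in B6, with 20 and 7 in NOD 1 and NOD 2, and did not pass (adjusted p = 0.212).

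Ifngr1 and Il22ra2 lie 11.8 kb apart on chromosome 10, on the same strand. Of the 6 nearest tested genes around this pair, 2 were down-regulated, against 7.39% of all genes tested, and none up-regulated, against 10.3%. These 2 were Perp and Map7, with log2 fold changes of -1.24 and -2.05 (edgeR adjusted p = 0.0395 and 0.0289). Perp encodes a protein of desmosomes and Map7 a microtubule-associated protein. Perp ends at 18857072 and Map7 begins at 20148920, so neither is adjacent to the pair. Pex7 and Map3k5, the next tested genes after Il22ra2, had log2 fold changes of 1.10 and 0.74 (adjusted p = 0.118 and 0.281). Il20ra, which lies between Il22ra2 and Pex7, had no counts in any library and was not tested. Farther upstream, Nhsl1 and Hebp2 had no counts in B6, with 62 and 69 counts for Nhsl1 and 0 and 23 for Hebp2 in the NOD libraries, and neither passed (adjusted p = 0.0661 and 0.394). The call of Perp was lost with upper-quartile scaling.

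**Figure D3:**
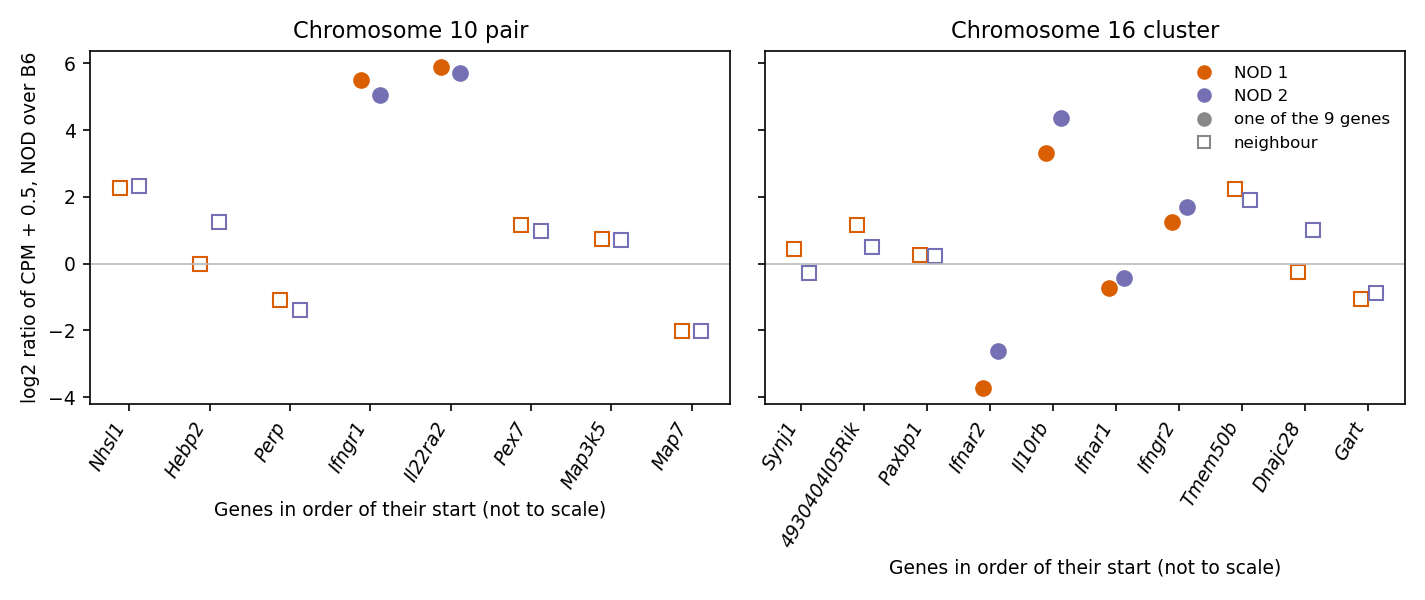
The log2 ratio of NOD to B6 (CPM + 0.5) for each NOD library, with genes in order along chromosome 10 and chromosome 16. Ifngr1 and Il22ra2 stand above 5 and their neighbours lie nearer to 0, while the cluster on chromosome 16 alternates between lower and higher genes.

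Over 3 libraries, the genes most like Ifngr1 by distance in log2 CPM were Tspan13, St3gal6 and Pnliprp2, at distances of 0.274, 0.302 and 0.336. They had 7, 6 and 6 counts in B6. Those most like Il22ra2 were Slc6a15, Lpcat2 and Gm9, at distances from 0.256 to 0.291, each with 0 counts in B6. Il22ra2 itself ranked 33rd in likeness to Ifngr1. With 3 libraries this is a list of genes at similar levels, and it carries no more than that.

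Downstream of the receptors, Jak2 had the ratio of NOD to B6 nearest to 1 among the 9 genes. Jak2 (NM_008413, chromosome 19, 29251803 to 29313080) had 156 counts in the B6 library, against 396 and 354 in NOD 1 and NOD 2, or 11.4 CPM against 11.2 ± 1.12 (SD, n = 2). B6 lay between the NOD libraries. The ratio of NOD to B6 was 0.977, with a counting interval from 0.821 to 1.17.

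Stat2 (NM_019963, chromosome 10, 128270576 to 128292849), the STAT that serves type I and type III interferons, was lower in NOD. It had 299 counts in the B6 library, against 142 and 214 in NOD 1 and NOD 2. This was 21.9 CPM in the B6 library and 5.29 ± 1.41 over the NOD libraries (SD, n = 2), which gave a ratio of B6 to NOD of 4.13 (counting interval 3.53 to 4.84). B6 was above both NOD libraries, which differed by 1.46-fold. Stat2 and Ifnar2, both of the type I branch, were thus lower in NOD in each library, and Ifnar1 less so.

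Irf1 (NM_008390, chromosome 11, 53770014 to 53777324), a transcription factor induced by interferon gamma, was near its detection limit. It had 15 counts in the B6 library, against 3 and 33 in NOD 1 and NOD 2, or 1.10, 0.0908 and 0.970 CPM. B6 was above both NOD libraries, but only by 1.14-fold for NOD 2. The NOD libraries differed by 10.7-fold (counting interval 3.35 to 54.4), more than in any other of the 9 genes. An antisense gene in GENCODE, Gm17334, overlaps exons of Irf1, and its reads cannot be told apart here because the counting did not use strand. Irf1 thus stayed between 0.0908 and 1.10 CPM in the 3 libraries.

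In order of FPKM in NOD, Ifngr1 came first with 17.3 ± 3.86 (SD, n = 2), followed by Il22ra2 with 11.2 ± 1.01, Il10rb with 9.92 ± 4.90 and Ifngr2 with 9.47 ± 2.05. With the listed lengths, the latter 3 did not differ beyond their spread. Ifnar2, Jak2 and Ifnar1, at 2.23 ± 1.39, 2.23 ± 0.222 and 2.22 ± 0.370, formed a second level with these lengths. Stat2 followed at 1.21 ± 0.323 and Irf1 at 0.249 ± 0.292. With the GENCODE lengths given above, Ifngr2 would lie below Il22ra2 and Ifnar1 above Jak2 in both NOD libraries. In the single B6 library the order began with Ifnar2 at 21.8 FPKM and continued with Stat2 at 5.02, Ifnar1 at 3.32, Ifngr2 at 3.20 and Jak2 at 2.28. Irf1, Il10rb and Ifngr1 followed at 0.518, 0.399 and 0.211, and Il22ra2 was at 0. This order also rests on the listed lengths: with those of GENCODE, Ifnar1 would lie above Stat2 and Ifngr2 below Jak2 in B6.

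The NOD libraries were compared over the 13352 tested genes with counts in both, whose median difference was 1.35-fold. Between these libraries, 6 of the 9 genes differed by more than this median, Ifngr1 and Ifngr2 only barely (1.37-fold and 1.36-fold). Irf1 alone exceeded the 90th percentile of 3.30-fold. In 6 genes NOD 2 was the higher library and in 3 it was NOD 1. NOD 1 was the higher library for Ifngr1 and NOD 2 for Ifnar2.

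NOD was also compared with B6 across all 14456 genes kept by edgeR's filter on low counts, by its quasi-likelihood test with Benjamini-Hochberg adjustment. A call required a 2-fold change or more with an adjusted p below 0.05, and all 9 genes passed the filter. Of the 9, Ifngr1, Il10rb and Il22ra2 were called up-regulated, against 10.3% of all genes tested, and Ifnar2 was called down-regulated, against 7.39%, a call that was lost with upper-quartile scaling. B6 was below both NOD libraries for 4 of the 9 genes and for 45.3% of all genes tested, and above both for 4 of the 9 and for 39.4%. Since the genes were selected on this comparison, nothing is read from these counts. The fitted log2 fold change was 6.35 (standard error 0.66) for Ifngr1, 4.63 (0.86) for Il10rb, 1.56 (0.54) for Ifngr2, -3.29 (0.73) for Ifnar2 and -2.05 (0.54) for Stat2. The test rests on 1 B6 library, whose spread is taken to be that of the NOD libraries. No gene of the table passed with limma-voom or when genes with low counts were kept in edgeR, although 3924 and 5568 genes had an unadjusted p under 0.05 there.

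The rest of the pathway was read from lists of 121 other genes, and its shares of calls lay near the background. The filter kept 67 of them, with 7 called up-regulated (10.4%) and 4 called down-regulated (5.97%). Their median log2 fold change was 0.86, against 0.26 for all genes tested. Among genes with counts in B6 the medians were 0.36 and 0.00. When every gene without B6 counts was placed at its bound, the medians over the genes tested were 0.80 and 0.23. Total-count scaling moved the median of all genes to 0.07 and the share of up-regulated genes among all calls from 58.1% to 47.8%.

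Ligands were almost absent. Of 23 genes for interferons, interleukin 10 and interleukin 22, 19 had 0 counts in every library, including Ifnb1 and all type I genes listed except Ifnk, which had 1 count in NOD 2. Interferon gamma itself (Ifng) had 0 counts in the B6 library, against 18 and 5 in NOD 1 and NOD 2, at most 0.545 CPM, and did not pass the test (edgeR adjusted p = 0.237). Il10 had 0, 1 and 17 counts (adjusted p = 0.333). At 0 counts, levels of up to 0.220 CPM remain possible for B6, against 0.0908 and 0.0882 for the NOD libraries.

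Of the other Janus kinases and STATs, 8 of 9 genes were tested, and Jak3 alone passed (1 of 8 down-regulated, against 7.39% of all genes tested, and none up-regulated, against 10.3%). Jak3, the kinase of receptors with the common gamma chain, was down-regulated from 10.3 CPM in the B6 library to 0.641 ± 0.00790 over the NOD libraries (SD, n = 2, log2 fold change -4.0, standard error 0.79, edgeR adjusted p = 0.0380). Jak1 and Tyk2, which serve the type I receptor, had log2 fold changes of 0.41 and 0.15 (adjusted p = 0.388 and 0.816). Stat3 and Stat6 had log2 fold changes of -1.15 and 1.05 (adjusted p = 0.0673 and 0.12).

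The interferon regulatory factors and their binding proteins showed 1 down-regulated gene among 8 tested, against 7.39% of all genes tested, and none up-regulated, against 10.3%. Irf2bp2, a corepressor that binds IRF2, was down-regulated from 38.7 CPM in the B6 library to 4.08 ± 0.633 over the NOD libraries (SD, n = 2, log2 fold change -3.24, edgeR adjusted p = 0.0242). Irf9, the partner of STAT2, had 129 counts in the B6 library, against 54 and 404 in NOD 1 and NOD 2, and B6 lay between the NOD libraries (adjusted p = 0.772). Irf3, which acts in nucleic acid sensing, had 40.7 CPM in the B6 library and 22.7 ± 7.08 over the NOD libraries (adjusted p = 0.221). Irf2bpl had a log2 fold change of -1.68 (adjusted p = 0.0798).

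Inhibitors of receptor signalling held 3 up-regulated genes among 12 tested (25.0%, against 10.3% of all genes tested) and none down-regulated (against 7.39%). Socs1, which blocks Janus kinases at the interferon gamma receptor, was up-regulated from 35.1 CPM in B6 (478 counts) to 125.4 CPM in NOD 1 and 125.5 in NOD 2 (log2 fold change 1.84, standard error 0.31, edgeR adjusted p = 0.0299). Ptpn6, which encodes the phosphatase SHP1, was up-regulated from 5.65 CPM to 33.5 ± 0.436 (SD, n = 2, log2 fold change 2.57, adjusted p = 0.0323). Ptpn2, a phosphatase that acts on JAK1, was up-regulated from 63.3 CPM to 165.8 ± 19.8 (log2 fold change 1.39, adjusted p = 0.0426). Its call was lost with total-count and with upper-quartile scaling. Pias1, Pias2 and Ptpn11 had log2 fold changes of 1.80, 0.31 and -0.04 (adjusted p = 0.0540, 0.437 and 0.941). The other 6, among them Socs3 and Cish, did not pass either, and Usp18, which restrains IFNAR2, had 0 counts in every library.

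Type I interferon targets had 2 genes up-regulated and 2 down-regulated among 21 tested, or 9.52% each, near the 10.3% and 7.39% of all genes tested. Ifi35 was up-regulated from 2.2 CPM to 28.9 ± 0.671 in NOD (SD, n = 2, log2 fold change 3.71, edgeR adjusted p = 0.0242), and Ifitm2, of a family that restricts viral entry, from 11.7 to 40.5 ± 0.411 (log2 fold change 1.79, adjusted p = 0.0480). Adar, which edits adenosine in double-stranded RNA, was down-regulated from 77.1 CPM to 11.5 ± 6.39 (log2 fold change -2.74, adjusted p = 0.0407), and the nucleic acid sensor Zbp1 from 15.6 to 1.73 ± 0.289 (log2 fold change -3.16, adjusted p = 0.0393). Many genes used as markers of an interferon response were at or near 0. Ifit2, Ifit3, Rsad2, Mx2, Herc6 and Rtp4 had no counts in any library, Ifit1 had 2 counts and Isg15 had 1, in B6 only, and Mx1 had 63 counts in NOD 1 only. Others had counts in each library and did not pass. Oasl2 had 20 in B6 against 59 and 367 in NOD 1 and NOD 2, and Ifi27 had 91 against 31 and 2. Of the 21 tested, B6 was below both NOD libraries for 11 (45.3% of all genes tested) and above both for 8 (39.4%). Bst2 had 29.9 CPM in the B6 library and 92.7 ± 20.2 over the NOD libraries and missed the threshold (adjusted p = 0.0509). Trim25 had a log2 fold change of -1.14 (adjusted p = 0.0666) and Samhd1 of 1.63, and neither passed. The call of Ifitm2 was lost with total-count and upper-quartile scaling and that of Adar with upper-quartile scaling.

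Interferon gamma targets had 2 up-regulated genes among 15 tested (13.3%, against 10.3% of all genes tested) and none down-regulated (against 7.39%). Both belong to the inducible forms of the proteasome: the catalytic subunit Psmb9, with 13 counts in the B6 library, against 411 and 605 in NOD 1 and NOD 2 (log2 fold change 3.98, edgeR adjusted p = 0.0343), and Psme2, a subunit of the PA28 activator, which went from 5.14 CPM to 22.7 ± 0.839 (SD, n = 2, log2 fold change 2.15, adjusted p = 0.0498). The call of Psme2 was lost with total-count and upper-quartile scaling. Of the 15, B6 was below both NOD libraries for 9 (45.3% of all genes tested) and above both for 2 (39.4%). Among those with counts in B6 the median log2 fold change was 1.53, against 0.0 for all such genes tested. B2m, the light chain of MHC class I, had 66.5 CPM in the B6 library and 120.7 ± 9.54 over the NOD libraries and did not pass (adjusted p = 0.102). The partners of Psmb9 and Psme2 did not pass. Psmb8 had 0 counts in B6 and NOD 1 and 61 in NOD 2, Psmb10 had a log2 fold change of -0.84 (adjusted p = 0.145) and Psme1 of 0.10 (adjusted p = 0.844). Of the guanylate-binding and immunity-related GTPases, Gbp2, Gbp5, Gbp6, Irgm2, Iigp1 and Tgtp1 had no counts in any library, and Gbp3 had 72 counts in NOD 1 only. Gbp4 had 20 counts in NOD 1 and 14 in NOD 2, and Igtp had 2 and 46, both with 0 in B6, and neither passed (adjusted p = 0.173 and 0.236). Cxcl9, Ido1, Nos2 and Cd274 were likewise at 0 in every library, and Cxcl10 had 33 counts in NOD 2 only.

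**Figure D4:**
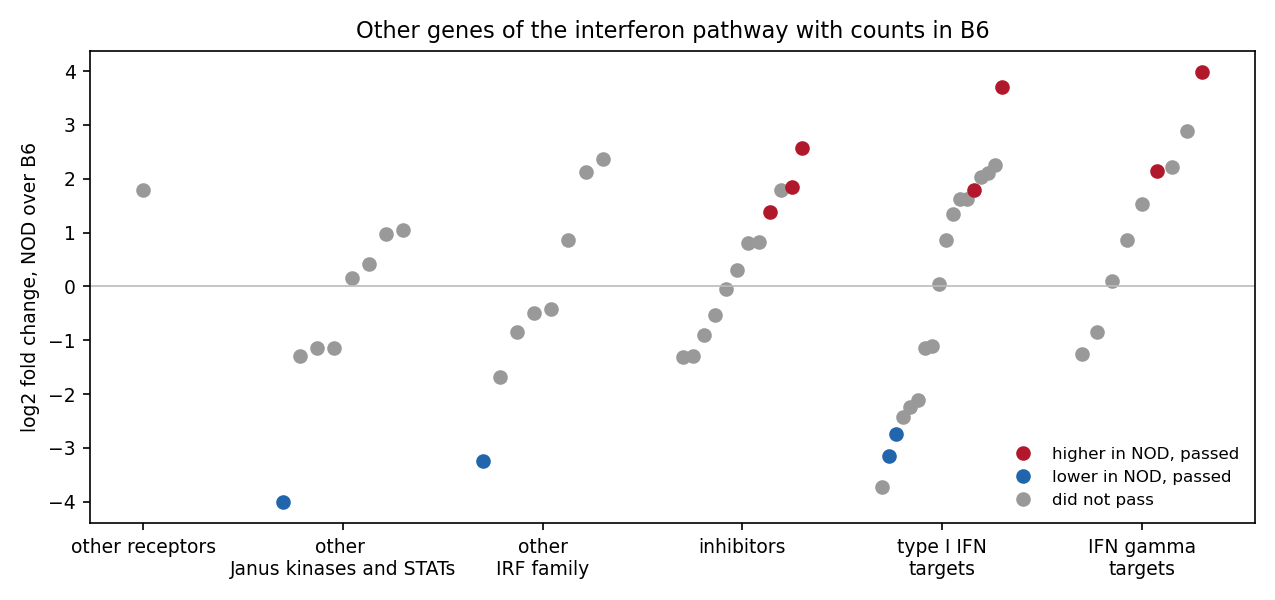
Fitted log2 fold change of NOD over B6 for the tested pathway genes with counts in B6, 1 point per gene in order within its list, coloured by whether it passed the threshold. Higher and lower genes occur in most lists, and the 3 inhibitors that passed are all higher in NOD.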

How the data were processed

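SMART-Seq v4 libraries of mouse blastocysts (1 from B6, 2 from NOD) were amplified with 19 PCR cycles and sequenced as single-end reads of 50 bases. The authors aligned reads to mm10 with STAR (its version differs between the paper's methods and the submitters' processing notes) and deposited raw read counts on exons of RefSeq genes from HOMER, with 1 transcript kept per gene and both strands together. The deposited table also lists the exon length of each counted transcript, used for FPKM.

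Genes, lists and tests were chosen with earlier results of these data known. Genes were kept by filterByExpr (minimum count 10), scaled by TMM and tested with edgeR 4.0.16 (quasi-likelihood, trended dispersion) in R 4.3.3, with Benjamini-Hochberg adjustment over 14456 genes. The design has 1 residual degree of freedom. The labels do not say whether the NOD libraries came from separate litters, so that p values measure only the spread between them. For a single gene, the smallest p of an exact permutation test with these 3 libraries is 0.333. The fit was tested on simulated data. Alternatives used DESeq2 1.42.0, limma 3.58.1, other scalings, no filter, and each NOD library left out. Intervals are exact Clopper-Pearson (scipy 1.17.1). Named were the 9 genes, from each list the genes that passed and up to 3 others with the highest CPM, and the nearest tested neighbours; other list genes were named after their values were seen. Distances used log2(CPM + 0.5). Shared 50-base words were counted in GENCODE M21 transcripts. Some genes of the pathway lists are not reported here.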

Additional observations from a re-analysis of the deposited data

How the results depend on the processing

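The numbers of genes called in NOD against B6, 1483 up and 1069 down, became 2365 and 1887 with DESeq2's test, and down-regulated genes became 701 with upper-quartile factors. With genes of low count kept, and with limma-voom, each of these numbers was 0, as were those of the interferon pathway lists (7 up and 4 down as reported), with 5568 and 3924 genes at an unadjusted p under 0.05. The pathway lists held 4 up-regulated genes with upper-quartile factors and without TMM factors (total counts), and 8 down-regulated genes with DESeq2. Of the 9 receptor and signalling genes, the log2 fold change kept its sign under all alternatives except for Jak2, which moved between -0.22 and 0.07. That of Irf1 was -0.17 without NOD 1 and -3.52 without NOD 2, and that of Ifnar2 was -2.75 and -4.12. The call of Ifnar2 was lost with upper-quartile factors, and DESeq2 also called Stat2 lower. No paired analysis was possible because B6 has 1 library. Leaving out a NOD library gives 1 against 1, a value with no test. The B6 library cannot be left out, and its depth limits genes near 0: a difference between strains and one between this embryo and others of B6 cannot be told apart. Reads of both strains were aligned to mm10, a reference of the B6 strain. Whether NOD reads that differ from it were lost, lowering NOD counts such as those of Ifnar2 and Stat2, was not tested.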
